A study of Mus musculus with 33 samples.

Results

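Endothelial cells from the liver of adult mice were compared with endothelial cells from whole embryos at embryonic day 9.5 (E9.5), all of them from the samples the labels call Ctrl, whose genotype labels name no Cre. The groups compared hold 8 of the 33 samples of the series: 2 RNA-seq and 2 ATAC-seq samples of adult liver Ctrl and the same number of E9.5 Ctrl, chosen by those labels. RNA levels were read for 25239 genes, of which 12546 passed a filter on low values and were tested and 12693 were not tested. The series as a whole asks how endothelium of different ages answers to added RUNX1, a transcription factor of blood cell formation, and the Ctrl samples hold the state of the cells without it.

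The adult liver Ctrl mice were C57BL/6J-129Sv/J, 4 to 6 weeks old, with the genotype label CKI/CKI or CKI/+, and the labels speak of females given 2 mg of tamoxifen by mouth. The E9.5 Ctrl embryos came from C57BL/6J-129Sv/J x B6C3F1 matings, with the genotype label CKI/+. Their mothers had been superovulated with 5 IU each of 2 gonadotrophins and injected with 2 mg of tamoxifen 24 h before harvest. Tamoxifen and a CKI allele, a conditional knock-in of Runx1, were thus shared by both groups. Both groups were sorted with the same surface markers, keeping CD31+ VEC+ cells with low or clear cKIT and without CD41, CD45 or Ter119. Age, organ, strain cross, genotype mix, tamoxifen route and hormone treatment all differed between the groups and cannot be told apart here. Levels of the sex-linked genes Xist and Ddx3y, given below, differed as well, so a difference in sex cannot be told apart either. Nothing in the labels ties the replicates to different animals or litters, so the p-values speak of the spread among these libraries alone, which may be technical.

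Endothelial cells line all vessels and take on features of the organ they serve. In the adult liver they form sinusoids, leaky capillaries whose cells clear particles and immune complexes from blood through scavenger and lectin receptors, secrete WNT and BMP ligands that pattern hepatocytes and set iron balance, and present antigen. At E9.5 the vessels and the endocardium are still being built by fast dividing cells, and some arterial cells are about to turn into blood cells. TGF-beta ligands act through type I and type II receptor kinases and SMAD proteins, and in endothelium they are known for driving matrix and contractile genes.

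RNA levels are in RPKM (reads scaled to transcript length and library size), and differences are adult liver minus E9.5 in log2(RPKM + 1), fitted with limma and adjusted over all genes tested. The 2 means come from the 4 Ctrl libraries, while the spread behind each p-value and the filter on low values come from all 13 RNA libraries of the series. Folds are ratios of mean RPKM and are given only where each group held at least 10 reads. The 2 liver libraries held 38649975 and 39468230 reads recovered from the RPKM steps, and the 2 E9.5 libraries held 38918863 and 41796873. Between 10871 and 10929 genes reached 1 RPKM in each of the 4 libraries. The SD of the difference between the 2 replicates over genes was 0.155 on the log2 scale in liver and 0.136 at E9.5.

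The sort markers were present in both groups. Pecam1, which encodes CD31, had 360 and 348 RPKM in liver libraries, against 156 and 164 RPKM in E9.5 libraries. Cdh5, which encodes VE-cadherin, had 177 and 181 RPKM in liver and 112 and 108 RPKM at E9.5. Kit, the receptor behind the cKIT gate, was 7.45-fold higher in liver, with 246 and 217 RPKM against 30.9 and 31.1 RPKM. Transcripts of the markers sorted against were low: Ptprc, which encodes CD45, had 0.909 and 0.967 RPKM in liver and was listed at 0 in both E9.5 libraries, and Itga2b, which encodes CD41, had 4.03 and 4.39 RPKM in liver and 4.88 and 5.15 RPKM at E9.5. Runx1 itself was low in both groups, at 1.19 and 1.53 RPKM in liver and 0.915 and 0.904 RPKM at E9.5, a log2 difference of 0.30 ± 0.10 (SE, adjusted p = 0.0172 with limma). The Y-linked gene Ddx3y had 37.1 and 37.0 RPKM in liver and 5.94 and 6.81 RPKM at E9.5, while Xist, made from the inactive X, had 0.00523 and 0.00338 RPKM in liver and 2.13 and 2.23 RPKM at E9.5. The liver libraries were thus high for the Y-linked gene and near 0 for Xist, which goes against the females their labels name, and the E9.5 libraries had both. Leaving out genes of chromosomes X and Y, a choice made after seeing the data, gave 10352 called of 12118 genes.

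Markers of hepatocytes, Kupffer cells, stellate cells and megakaryocytes had higher sums in the liver libraries, and cholangiocyte markers a lower one. Granulocyte and lymphocyte markers had low sums that were also higher in liver. Of 20 hepatocyte markers, 17 reached 1 RPKM in liver and 1 at E9.5, and their sums were 220 and 237 RPKM in liver against 19.4 and 20.7 RPKM at E9.5. Albumin (Alb) stood at 42.1 and 45.6 RPKM in liver, and Fga, Fgg and Serpina3k were listed at 0 at E9.5. Kupffer cell and macrophage markers summed to 464 and 497 RPKM in liver and 3.12 and 2.63 RPKM at E9.5, with 15 and 1 of 18 at 1 RPKM or more, and Fcer1g alone made up 234 and 258 RPKM of the liver sums. The Kupffer lectin Clec4f had 18 and 18.3 RPKM in liver, and Adgre1 and Itgam were listed at 0 at E9.5. Stellate and smooth muscle markers summed to 224 and 230 RPKM in liver and 101 and 104 RPKM at E9.5, with 8 and 7 of 14 at 1 RPKM or more. Of the 12 of them tested, 7 were called higher in liver and 4 lower. Megakaryocyte and platelet markers summed to 38.7 and 44.9 RPKM in liver and 8.09 and 8.2 RPKM at E9.5. Of the 4 of them tested, 2 were called higher and 0 lower. Granulocyte markers summed to 3.11 and 8.22 RPKM in liver and 1.54 and 1.8 RPKM at E9.5. Lymphocyte and NK markers summed to 4.2 and 4.72 RPKM in liver and 1.82 and 2.22 RPKM at E9.5. In the other direction, cholangiocyte and epithelial markers summed to 9.1 and 9.91 RPKM in liver and 29.8 and 29.4 RPKM at E9.5. Of the 8 of them tested, 7 were called lower in liver and 1 higher. Erythroid markers summed to 38.3 and 37.1 RPKM in liver and 199 and 202 RPKM at E9.5, led there by the embryonic globin Hbb-y. Cardiomyocyte markers summed to 5.57 and 4.94 RPKM in liver and 40.7 and 42.6 RPKM at E9.5, neural markers to 6.09 and 6.28 RPKM in liver and 36 and 36.9 RPKM at E9.5, and embryonic mesenchyme markers to 21.4 and 19.7 RPKM in liver and 35.9 and 34.3 RPKM at E9.5. No liver-only ATAC peak lay within 10 kb of the 18 hepatocyte, 15 Kupffer or 12 stellate markers that were tested. Such a peak lay that near to 19.2% of all genes, and to 38.0% of those higher in liver by at least 2 on the log2 scale. The 8 cholangiocyte, 11 erythroid, 12 mesenchyme, 4 neural and 5 cardiomyocyte markers tested, whose sums were lower in liver, also had none. Nor did the 4 megakaryocyte markers or the 1 lymphocyte marker tested, while such a peak lay near 1 of 6 granulocyte markers (16.7%). In bulk samples, fewer cells of a type and less RNA per cell cannot be told apart.

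Most of the transcriptome differed between adult liver and E9.5 endothelium. Of the 12546 genes tested, 10710 (85.4%) were called at an adjusted p under 0.05, 5351 higher in liver (42.7%) and 5359 lower (42.7%). A change of at least 1 on the log2 scale was reached by 5428 genes (43.3%), 2811 higher in liver (22.4%) and 2617 lower (20.9%), and a change of at least 2 by 1172 higher and 946 lower. The median difference over all genes was -0.01 and the median size 0.84. The libraries of the 2 groups did not overlap in 11735 genes (93.5%), so non-overlap alone singles out few genes here. With libraries rescaled to equal RPKM sums, the median over all genes moved to -0.18 and the split to 4679 higher and 6104 lower, so a change smaller than about that shift depends on the scaling.

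Adult liver and E9.5 were also set side by side in 4 libraries with added Runx1, which entered the spread and the filter of the Ctrl comparison but not its means: adult liver with 2 knock-in copies (Liver 2Runx1, genotype Cre; CKI/CKI) and E9.5 with 1 copy (E9.5 1Runx1, genotype Cre; CKI/+). These libraries carry the same differences of organ, strain and handling as the Ctrl libraries, and they differ in Runx1 copies too. In that contrast 10553 genes were called (84.1%). Of the 5351 genes higher in liver Ctrl, 5033 (94.1%) were also higher there, 93% of the 5413 called higher in the Runx1 contrast. Of the 5359 lower, 4865 (90.8%) were also lower, 94.6% of the 5140 called lower there. The direction was opposite, with a call in both contrasts, for 11 and 28 genes.

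**Figure D1:**
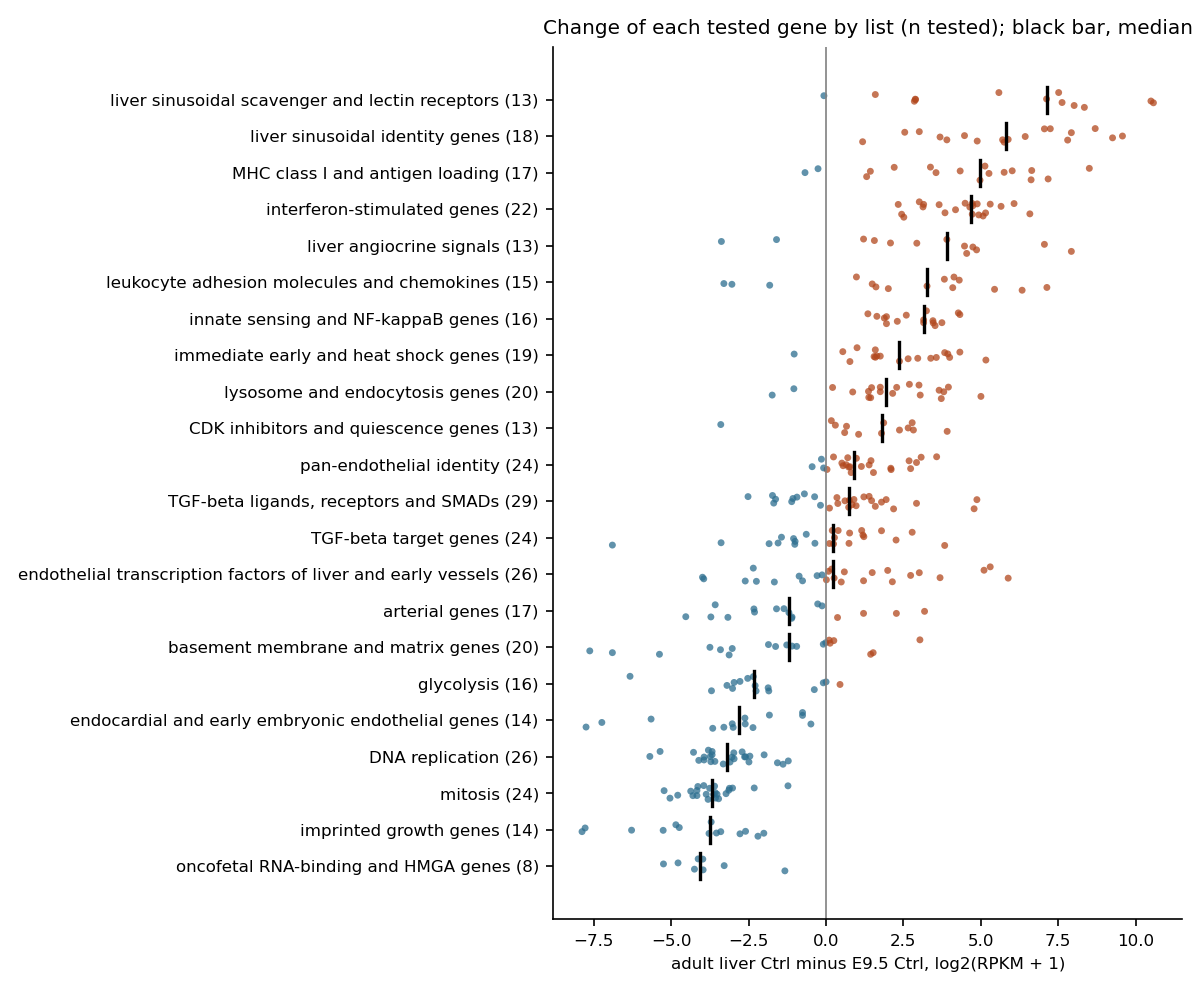
Difference of each tested gene, adult liver Ctrl minus E9.5 Ctrl in log2(RPKM + 1), for 22 gene lists, with the number tested in brackets, 1 point per gene and a black bar at the list's median. Medians run from 7.12 for sinusoidal scavenger and lectin receptors to -4.05 for oncofetal genes, against -0.01 over all genes tested.

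Open chromatin was read from 1 list of ATAC peaks per group, pooled by the authors over both replicates, so peaks are described without a test. The liver list held 39019 peaks covering 12956 kb and the E9.5 list 99298 peaks covering 38509 kb. The lists differed in strength as well, with a median -log10 q of 8.32 in liver and 15.6 at E9.5. Of the liver peaks, 76.2% overlapped an E9.5 peak (95% interval 75.8 to 76.6, Wilson, counting error only), and of the E9.5 peaks 28.3% overlapped a liver peak (28.0 to 28.5). With the E9.5 list reduced to its strongest peaks, as many as the liver list held, the shares were 60.7% and 56.4%. The 9276 liver-only peaks were narrow and weak, with a median width of 150 bases and a median -log10 q of 3.66, and 32.5% of them were also in the Liver 2Runx1 list. The 71237 E9.5-only peaks had a median width of 231 bases and a median -log10 q of 10.2, and 76.8% were also in the E9.5 1Runx1 list. Among 1-list peaks with a -log10 q of at least 10, a limit added after seeing the data, 90.7% of 915 liver-only peaks were in the Liver 2Runx1 list and 13.8% in the E9.5 1Runx1 list, while 97.0% of 35806 E9.5-only peaks were in the E9.5 1Runx1 list and 8.6% in the Liver 2Runx1 list. Start sites were rarer in peaks of 1 list: 3.17% of liver-only and 9.55% of E9.5-only peaks lay within 1 kb of an annotated start, against 36.3% of shared peaks in the liver list.

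RNA tended to move with a promoter peak found in 1 list only, but most genes that changed had a promoter peak in both lists. Among the 9852 tested genes with a RefSeq start (78.5% of those tested, so the statement covers these genes only), 40 had a peak within 1 kb in the liver list only, and 33 of them (82.5%) were higher in liver by at least 1 on the log2 scale and 0 lower, with a median of 3.88. Another 835 had a promoter peak in the E9.5 list only, of which 360 (43.1%) were lower in liver by at least 1 and 132 (15.8%) higher, with a median of -0.69. With a peak in both lists the 8286 genes had a median of -0.01 and 20.7% were higher and 19.5% lower. They held 1714 of the 2161 genes higher by at least 1 and 1612 of the 2064 lower by as much. With no promoter peak in either list, the 691 genes had a median of 0.63, with 40.8% higher and 13.3% lower by at least 1. When either end of the gene was taken as its start, a choice made after seeing the data that covers 12493 genes, the medians were 2.52 for liver-only, -0.49 for E9.5-only and 0.30 for neither. In the Runx1 libraries, the medians were 4.00, -0.72, 0.03 and 0.59 for liver-only, E9.5-only, both and neither.

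**Figure D2:**
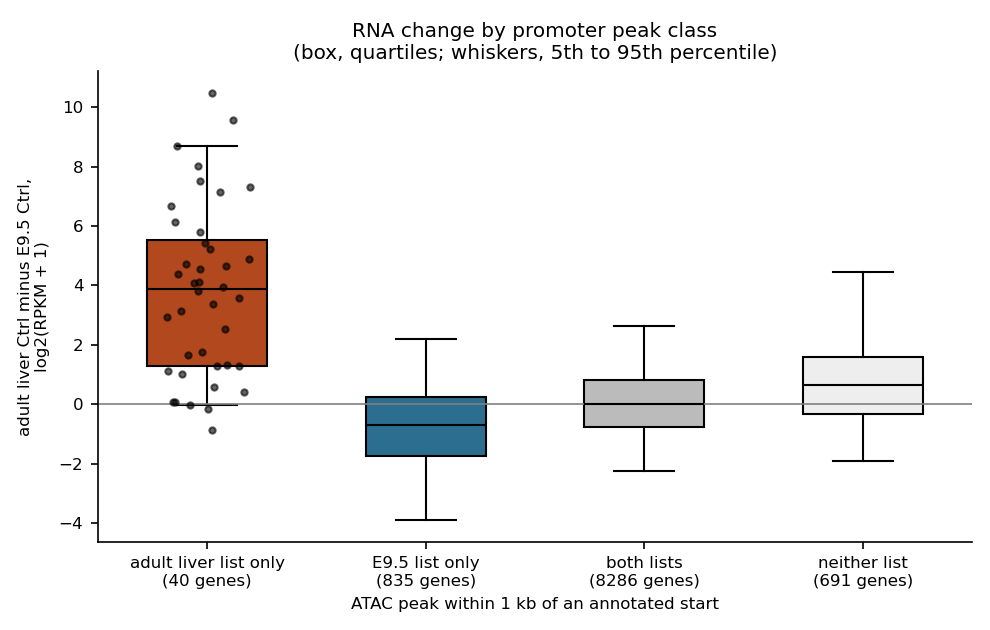
RNA difference, adult liver Ctrl minus E9.5 Ctrl in log2(RPKM + 1), by where an ATAC peak lay within 1 kb of an annotated start. Boxes span the quartiles, whiskers the 5th to 95th percentile, and points are the 40 genes with a liver-only promoter peak, whose median is 3.88 against -0.69 for the 835 genes with an E9.5-only one.

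Among the listed genes, those with a liver-only promoter peak that were called were the sinusoidal receptors Clec4g and Mrc1, the sinusoidal genes Cyp4b1 and Il1a, the adhesion molecules Sele and Selp and the interferon-induced Ifit1. An E9.5-only promoter peak went with a lower level in liver at the growth factor gene Igf2, the matrix genes Col18a1 and Hapln1, and the oncofetal genes Lin28a, Lin28b and Trim71. It also stood at genes that were higher in liver: Aass, Wnt9b and Flt4 had an E9.5-only promoter peak, and Wnt9b had 10 E9.5-only peaks and 0 liver peaks within 10 kb although its RNA was 278-fold higher in liver. Promoters of both classes are printed here, picked because the promoter peak and RNA moved together. They belong to a sinusoidal receptor, a sinusoidal enzyme, an oncofetal gene and a TGF-beta target. Within 10 kb, Clec4g and Cyp4b1 also had 2 E9.5-only peaks each. The strongest had a -log10 q of 32.4 at Clec4g and 19.7 at Cyp4b1, above the 8.0 and 11 of their liver-only promoter peaks. Each printed sequence is a RefSeq promoter on GRCm38.p6 from 250 bases before to 50 bases after an annotated start. It runs 5′ to 3′ on the minus strand, with motif matches in capitals. Where a gene had several annotated starts, the start nearest to a peak of its list was taken. For Lin28b that start lay inside the gene, which spans 45376617 to 45486314 on chromosome 10. Clec4g (a lectin receptor, chr8:3720602-3720901, liver-only peak with a fold of 5.37 and a -log10 q of 8.0 by the authors' caller) held 1 SOX match and 3 ETS matches, of which 2 overlap:
Clec4g: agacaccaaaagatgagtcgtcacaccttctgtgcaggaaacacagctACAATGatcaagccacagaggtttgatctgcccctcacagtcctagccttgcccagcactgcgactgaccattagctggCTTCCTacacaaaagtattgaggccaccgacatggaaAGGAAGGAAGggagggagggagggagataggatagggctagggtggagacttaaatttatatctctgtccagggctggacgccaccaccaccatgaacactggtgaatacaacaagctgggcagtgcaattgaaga
Cyp4b1 (a cytochrome P450 enzyme, chr4:115647672-115647971, liver-only peak with a fold of 7.63 and a -log10 q of 11) held 1 AP-1 match:
Cyp4b1: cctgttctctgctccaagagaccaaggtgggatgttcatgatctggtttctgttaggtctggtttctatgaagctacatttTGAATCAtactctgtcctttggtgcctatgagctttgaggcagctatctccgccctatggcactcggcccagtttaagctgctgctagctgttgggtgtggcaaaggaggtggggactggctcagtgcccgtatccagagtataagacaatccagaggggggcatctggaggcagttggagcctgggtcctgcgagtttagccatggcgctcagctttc
Lin28b (which blocks let-7 maturation, chr10:45470152-45470451, E9.5-only peak with a fold of 4.98 and a -log10 q of 19.2) held MAF, GATA, MAF, GATA, ETS and MEIS matches in that order, the second GATA and the ETS match side by side:
Lin28b: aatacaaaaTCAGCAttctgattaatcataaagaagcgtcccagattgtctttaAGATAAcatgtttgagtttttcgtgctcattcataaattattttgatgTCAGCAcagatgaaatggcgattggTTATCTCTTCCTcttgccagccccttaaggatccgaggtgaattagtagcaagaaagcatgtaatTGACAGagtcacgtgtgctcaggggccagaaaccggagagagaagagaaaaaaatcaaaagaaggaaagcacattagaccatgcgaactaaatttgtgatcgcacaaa
Acta2 (smooth muscle actin, chr19:34255324-34255623, E9.5-only peak with a fold of 5.26 and a -log10 q of 8.08) held an E-box, a TEAD and a MAF match:
Acta2: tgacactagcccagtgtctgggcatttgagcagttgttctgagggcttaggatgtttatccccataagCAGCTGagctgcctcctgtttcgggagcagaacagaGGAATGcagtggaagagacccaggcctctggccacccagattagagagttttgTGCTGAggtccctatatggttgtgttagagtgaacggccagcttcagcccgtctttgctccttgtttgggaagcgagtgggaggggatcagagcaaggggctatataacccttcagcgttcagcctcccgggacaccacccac
The letters searched on both strands were AGATAA for GATA factors, AGGAAG for ETS factors, ACAATG for SOX factors, TGCTGA for MAF factors, TGTGGT for RUNX factors, TGANTCA for the AP-1 complex, GGAATG for TEAD factors, TGACAG for MEIS factors, CAGCTG for the E-box, TTGGCA for NFI factors and CAAAGTCCA for the HNF4 receptors, beside the IRF element by its name.

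In all 12467 RefSeq promoters of the table, 6.51% held a GATA, 33.2% an ETS, 7.26% a SOX, 14.9% a MAF, 12.2% a RUNX, 4.93% an AP-1, 12.1% a TEAD, 16.5% a MEIS, 15.1% an E-box, 11.1% an NFI, 0.369% an HNF4 and 3.02% an IRF match. Counted by gene, the ETS letters stood in 70.0% of the 40 genes with a liver-only promoter peak, against 37.2% of all genes tested with a start. The IRF letters stood in 12.5% against 3.68%, the RUNX letters in 25% against 14.4%, and the SOX letters in 22.5% against 8.71%. The MAF letters stood in 30% against 17.5% and the AP-1 letters in 15% against 5.89%. For the NFI letters the shares were 20% against 13.2%, and for the MEIS letters 22.5% against 19.1%. The GATA letters stood in 7.5% against 7.81%, the TEAD letters in 10% against 14.2% and the E-box letters in 15% against 17.4%, and the HNF4 letters in 0 of the 40. Genes with an E9.5-only promoter peak held the E-box letters in 23% against 17.4% and the GATA letters in 9.34% against 7.81%. Their AP-1 share was 8.86% against 5.89%, ETS 42.8% against 37.2%, TEAD 16.6% against 14.2% and MAF 19.2% against 17.5%. Their SOX, NFI, IRF and RUNX shares, at 9.1%, 13.9%, 3.71% and 14.4%, were near those of all genes. MEIS, at 18.7%, and HNF4, at 0.359%, were below them. Genes with no promoter peak in either list held the GATA letters in 13.2%. They also held the ETS letters in 41.5%, MAF in 24.7%, RUNX in 20.3%, SOX in 11.9% and IRF in 6.22%, each above the share of all genes. The same held for TEAD at 19.5%, MEIS at 21.4%, NFI at 16.2%, AP-1 at 8.83%, the E-box at 18.5% and HNF4 at 1.45%. Base composition moved with these shares: median GC content was 48.0% for liver-only, 58.5% for E9.5-only, 61.7% for both and 52.0% for neither, and its part in them was not tested.

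The general endothelial program was present in both groups and on the whole higher in liver. Of 24 pan-endothelial genes, all tested, 20 were called higher and 2 lower, with a median of 0.90. Adgrl4, an adhesion receptor of vessels, had 654 and 631 RPKM in liver against 54.5 and 52.2 RPKM at E9.5. Robo4, a guidance receptor that stabilises vessels, had 261 and 260 RPKM in liver and 29.2 and 31.1 RPKM at E9.5. Eng, a TGF-beta co-receptor, had 996 and 1020 RPKM in liver and 130 and 133 RPKM at E9.5. All 3 rose, by 3.57 ± 0.06, 3.07 ± 0.08 and 2.92 ± 0.06 on the log2 scale (SE). The 2 lower genes were the ETS factor Fli1, by -0.45 ± 0.05, and Sox7, by -0.15 ± 0.04, a change within the shift that rescaling gives.

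Sinusoidal scavenger and lectin receptors carried the largest increases. Of 14 on the list 13 were tested, 12 were called higher, all by at least 1, and 0 lower, and the median of 7.12 compares with -0.01 over all genes. Fcgr2b, the inhibitory Fc receptor that clears small immune complexes (chromosome 1, 170960558 to 170976071), had 2170 and 2210 RPKM in liver libraries, against 0.490 and 0.398 RPKM in E9.5 libraries. Clec4g, a C-type lectin (chromosome 8, 3707066 to 3720695), had 6010 and 6060 RPKM in liver, the highest level of the list, and 3.29 and 3.10 RPKM at E9.5. These were folds of 4930 and 1890, with log2 differences of 10.57 ± 0.16 and 10.49 ± 0.38 (SE) and adjusted p-values of 1.21e-12 and 5.07e-10. Fcgr2b lay beside 6 liver-only peaks and 0 E9.5 peaks within 10 kb, the strongest at chr1:170972838-170973257 with a fold of 7.09.

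Other receptors of the list also rose. Ehd3, an endocytic recycling protein, had 2710 and 2600 RPKM in liver and 7.23 and 7.13 RPKM at E9.5. Mrc1, the mannose receptor, had 679 and 674 RPKM in liver and 1.55 and 1.73 RPKM at E9.5. Stab2, the hyaluronan scavenger receptor (chromosome 10, 86841194 to 87008038), had 828 and 705 RPKM in liver and 3.11 and 3.28 RPKM at E9.5. They were 369-fold, 413-fold and 240-fold higher in liver, and 5, 3 and 4 liver-only peaks lay within 10 kb of them, beside 1, 1 and 6 E9.5-only peaks. The E9.5-only peak at Mrc1 was stronger than its strongest liver-only peak, with a -log10 q of 80.8 against 7.11. Fcgrt, the neonatal Fc receptor that recycles IgG and albumin, was 229-fold higher, the fatty acid receptor Cd36 211-fold and the hyaluronan receptor Lyve1 55.5-fold. Stab1, the other stabilin, had 481 and 444 RPKM in liver and 59.1 and 63.6 RPKM at E9.5, a 7.53-fold difference. The endocytic adaptor Dab2 and the HDL receptor Scarb1 were likewise well expressed at E9.5 and were 7.38-fold and 3.05-fold higher in liver. Cd209b, another C-type lectin, was at 5.86 and 7.04 RPKM in liver, with 887 reads in the liver libraries together and 1 read at E9.5. Colec12, a scavenger collectin, was not called, at 18.3 and 17.9 RPKM in liver and 19.6 and 18.4 RPKM at E9.5, and Cd209f was too low to test.

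**Figure D3:**
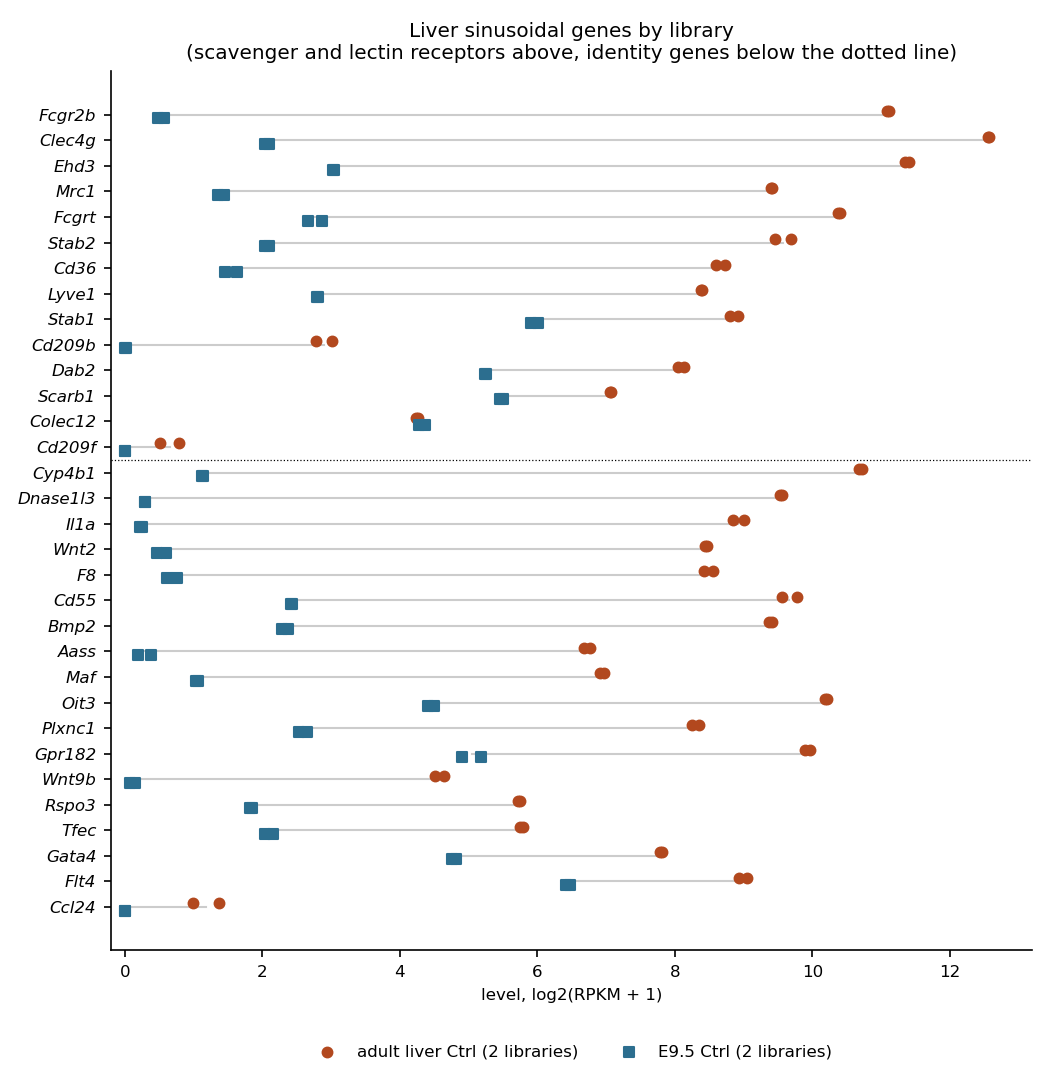
Level of the 32 sinusoidal genes in log2(RPKM + 1) in each of the 2 adult liver Ctrl libraries (circles) and the 2 E9.5 Ctrl libraries (squares), joined by a line from mean to mean. The widest gap is that of Fcgr2b, 10.57, and Colec12 is the 1 tested gene drawn that was not called.

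All 18 sinusoidal identity genes were tested and called higher by at least 1, with a median of 5.82. Cyp4b1 had 1640 and 1680 RPKM in liver and 1.17 and 1.21 RPKM at E9.5, a 1390-fold difference. Dnase1l3, a secreted DNase that digests chromatin in blood, had 738 and 753 RPKM in liver and 0.225 and 0.228 RPKM at E9.5. Il1a, an alarmin cytokine, had 457 and 515 RPKM in liver and 0.186 and 0.162 RPKM at E9.5. The last 2 were 3290-fold and 2800-fold higher, with log2 differences of 9.25 ± 0.36 and 8.69 ± 0.29 (SE). A liver-only peak at the Il1a start, chr2:129309865-129310240, had a fold of 11.3 and a -log10 q of 21.5, and Il1a had 0 E9.5-only peaks.

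The transcription factors of the list differed less in fold and were expressed in the embryo too. Gata4, required for sinusoidal identity in mouse and also made in the endocardium (chromosome 14, 63198914 to 63271712), had 223 and 220 RPKM in liver and 27.3 and 26.0 RPKM at E9.5, an 8.33-fold difference. Maf had 119 and 124 RPKM in liver and 1.1 and 1.05 RPKM at E9.5, a 113-fold difference, and Tfec, a factor of the MiT family, was 16.3-fold higher. F8, coagulation factor VIII, was 583-fold higher in liver, with 342 and 375 RPKM against 0.534 and 0.694 RPKM. Cd55, a complement inhibitor, was 186-fold higher, Aass, an enzyme of lysine breakdown, 462-fold, Plxnc1, a semaphorin receptor, 61.9-fold, Oit3, a secreted zona pellucida domain protein, 56.4-fold, Gpr182, a chemokine scavenging receptor, 30.2-fold, and Flt4, the VEGF-C receptor, 5.89-fold. Aass had 4 liver-only peaks within 10 kb, the strongest at chr6:23106337-23106682 with a fold of 8.41 and a -log10 q of 12.7, and 2 E9.5-only peaks, the strongest with a fold of 15.6 and a -log10 q of 70.0. The chemokine Ccl24 was the lowest of the list, at 0.987 and 1.59 RPKM in liver and listed at 0 in both E9.5 libraries.

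Liver-only peaks lay within 10 kb of 8 of 13 receptor genes (61.5%) and 9 of 18 identity genes (50.0%). The share was 19.2% over all 12493 genes with coordinates and 38.0% over the 1170 genes higher in liver by at least 2 on the log2 scale. E9.5-only peaks were common everywhere, at 77.0% of all genes.

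Angiocrine ligands, the signals endothelium sends to hepatocytes, were higher in liver in 11 of 13 tested genes and lower in 2, with a median of 3.90. Wnt2, a ligand that sets the pericentral zone, had 353 and 347 RPKM in liver and 0.509 and 0.388 RPKM at E9.5. Its partner Wnt9b had 24.0 and 21.9 RPKM in liver and 0.0595 and 0.106 RPKM at E9.5, so both were near 0 in the embryo. Rspo3, which boosts WNT signalling, had 51.7 and 53.0 RPKM in liver and 2.54 and 2.60 RPKM at E9.5. The iron-regulating ligand Bmp2 had 678 and 658 RPKM in liver and 4.2 and 3.88 RPKM at E9.5. All 4 rose, Wnt2 by 781-fold and Bmp2 by 165-fold, and Rspo3, already present at E9.5, by 20.3-fold. Inhbb, an activin subunit, and Hgf, a hepatocyte mitogen, were 445-fold and 108-fold higher. Igf1 and the Notch ligand Jag1 fell, Igf1 to 0.724 and 0.610 RPKM in liver, against 17.0 and 15.6 RPKM at E9.5.

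Genes for handling fatty acids and water held 3 of the 12 largest increases, but the list as a whole was split, with 6 of 14 tested genes higher, 6 lower and a median of -0.23. Fabp4, a fatty acid carrier, had 944 and 957 RPKM in liver and 0.826 and 1.04 RPKM at E9.5. Gpihbp1, which moves lipoprotein lipase across capillaries, had 2720 and 2830 RPKM in liver and 5.69 and 5.88 RPKM at E9.5. The water channel Aqp1 had 3090 and 3040 RPKM in liver and 5.71 and 5.61 RPKM at E9.5. These were folds of 1020, 479 and 541. Tcf15, a factor that with Meox2 drives fatty acid uptake in heart and muscle endothelium, fell to 0.168 and 0.228 RPKM in liver, against 17.2 and 17.9 RPKM at E9.5. Of the remaining largest increases, Igfbp7, a secreted binding protein, had 4760 and 4890 RPKM in liver and 8.33 and 8.80 RPKM at E9.5.

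Arterial genes went the other way, with 12 of 17 lower in liver, 4 higher and a median of -1.20. Gja5, the arterial gap junction protein connexin 40, had 1.14 and 1.23 RPKM in liver and 49.4 and 49.5 RPKM at E9.5. Jag2, a Notch ligand, had 0.393 and 0.493 RPKM in liver and 17.5 and 18.4 RPKM at E9.5, and Hey1, a Notch target, had 1.76 and 1.44 RPKM in liver and 30.1 and 30.0 RPKM at E9.5. They fell by 4.53 ± 0.24, 3.72 ± 0.09 and 3.58 ± 0.16 on the log2 scale (SE). The 4 higher genes were the VEGF co-receptor Nrp1 at 9.17-fold, the connexin Gja4 at 4.87-fold, the Notch ligand Dll4 at 2.36-fold and Notch1 at 1.31-fold. Venous and lymphatic genes had 6 of 12 higher and 4 lower. Nr2f2, the venous factor, was 2.98-fold higher and the venous receptor Ephb4 2.7-fold, while the apelin receptor Aplnr was 493-fold lower, at 0.543 and 0.977 RPKM in liver and 375 and 375 RPKM at E9.5.

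All 14 endocardial and early endothelial genes were lower in liver, 11 of them by at least 1, with a median of -2.81. Hapln1, a hyaluronan link protein of the cardiac jelly, had 0.142 and 0.210 RPKM in liver and 178 and 175 RPKM at E9.5, 1000-fold lower in liver. Cd34, a sialomucin of young vessels and blood progenitors, had 7.39 and 7.80 RPKM in liver and 435 and 427 RPKM at E9.5. Npr3, a natriuretic peptide receptor of the endocardium, was 107-fold lower. Etv2, the pioneer factor of the endothelial lineage, had 0 reads in the liver libraries and 455 reads, or 5.67 and 4.61 RPKM, at E9.5. Among transcription factors of liver and early vessels, 14 of 26 were higher and 9 lower. Maf, Irf7, Irf8 and Tfec led the increases, and Foxc2, Tcf15, Etv2 and Foxc1 the decreases, with Foxc2 at 0.149 and 0.211 RPKM in liver and 17.7 and 17.8 RPKM at E9.5. Of 11 brain endothelial genes, 9 were lower in liver and 1 higher, with a median of -0.71, led by the WNT-responsive factor Lef1 at 0.110 and 0.0821 RPKM in liver and 18.2 and 18.1 RPKM at E9.5. Klf2 and Klf4, factors that respond to flow, were 4.43-fold and 7.88-fold higher in liver.

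Among 15 tested regulators of hemogenic endothelium and stem cells, 5 were higher in liver and 8 lower, with a median of -0.57. Besides Kit, the increases were led by Neurl3, an E3 ligase, at 74.6 and 76.1 RPKM in liver and 1.13 and 1.21 RPKM at E9.5, and Adgrg1, an adhesion receptor of hemogenic cells, at 72.0 and 70.1 RPKM in liver and 3.36 and 4.59 RPKM at E9.5. Those led the list upward. Hoxa9, a stem cell factor, had 0.0193 and 0.00938 RPKM in liver and 2.91 and 3.22 RPKM at E9.5, and Cd44, Lyl1 and Mecom also fell. Gata2 was not called, at 22.5 and 20.1 RPKM in liver and 21.0 and 22.4 RPKM at E9.5, with a log2 difference of -0.03 ± 0.09 (SE).

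TGF-beta components were mixed, also among ligands, among latent binding proteins and among receptors. Of 29 tested, 18 were higher in liver and 9 lower, with a median of 0.73, and 10 and 6 of them by at least 1. Among ligands, Tgfb1 had 123 and 133 RPKM in liver and 48.1 and 48.0 RPKM at E9.5, while Tgfb2 had 1.14 and 1.31 RPKM in liver and 5.94 and 5.80 RPKM at E9.5. Of the latent binding proteins that store the ligand in matrix, Ltbp4 had 246 and 238 RPKM in liver and 7.64 and 7.03 RPKM at E9.5, and Ltbp1 had 1.29 and 0.931 RPKM in liver and 6.11 and 5.87 RPKM at E9.5. In both pairs 1 gene was higher in liver and 1 at E9.5.

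Receptors were split in the same way. Tgfbr2, the type II receptor (chromosome 9, 116087695 to 116175363), had 180 and 164 RPKM in liver and 39.1 and 35.3 RPKM at E9.5, a 4.63-fold difference. Its type I partners fell: Tgfbr1 had 14.5 and 12.1 RPKM in liver and 27.2 and 25.5 RPKM at E9.5, and Acvrl1, the endothelial type I receptor for BMP9, had 20.6 and 19.7 RPKM in liver and 44.6 and 45.0 RPKM at E9.5. Bmpr1a was the largest decrease of the list, at 0.410 and 0.359 RPKM in liver and 6.94 and 6.97 RPKM at E9.5, while Bmpr2 was 4.77-fold higher. Lrg1, a secreted modulator that binds endoglin, was 117-fold higher in liver. The inhibitory SMADs Smad6 and Smad7 were 2.83-fold and 2.47-fold higher. The signal transducers moved less: Smad2 was 1.33-fold lower, and Smad3 and Smad4 were not called, at -0.18 ± 0.10 and 0.11 ± 0.07 on the log2 scale (SE).

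Of 24 tested TGF-beta target genes, 11 were higher in liver and 9 lower, with a median of 0.22. As a whole the list was thus near all genes tested, of which 42.7% were higher and 42.7% lower, with a median of -0.01. Fn1, fibronectin (chromosome 1, 71585473 to 71653280), had 1.45 and 1.53 RPKM in liver and 301 and 293 RPKM at E9.5, 199-fold lower in liver, with a log2 difference of -6.90 ± 0.12 (SE). Acta2 had 0.231 and 0.377 RPKM in liver and 12.2 and 13.2 RPKM at E9.5, and the collagen Col3a1 had 10.6 and 8.77 RPKM in liver and 36.1 and 38.1 RPKM at E9.5. Tagln, a smooth muscle actin-binding protein, had 4.15 and 3.57 RPKM in liver and 13.3 and 13.1 RPKM at E9.5. Matrix and contractile genes thus made up the 4 largest decreases. The 4 largest increases were the AP-1 factor Junb, the cell cycle inhibitors Cdkn1a and Cdkn2b and the EGF receptor ligand Hbegf, with Junb at 656 and 644 RPKM in liver and 45.2 and 44.4 RPKM at E9.5. Junb is also an immediate early gene, and 17 of 19 such genes were higher in liver, with a median of 2.37. Acta2 is also a stellate and smooth muscle marker, whose sums were higher in liver, and the collagen gene Col1a1 is a mesenchyme marker too, whose sums were higher at E9.5. The part of such cells in the levels of these targets was not tested.

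Chromatin at the same genes was mostly that of the larger E9.5 list. Of the 24 tested targets, 23 had an E9.5-only peak within 10 kb and 7 (29.2%) a liver-only peak, against 77.0% and 19.2% of all genes. Fn1 had 5 E9.5-only peaks and 0 liver peaks, and the one over its start, chr1:71652658-71653701, had a fold of 15.9 and a -log10 q of 309. Zeb2, a repressor of epithelial genes, had 23 E9.5-only and 3 liver-only peaks while its RNA was 2.57-fold higher in liver. BMP target genes were higher in liver in 7 of 10 tested and lower in 3. Id4, an inhibitor of bHLH factors, had 60.8 and 57.8 RPKM in liver and 1.04 and 0.960 RPKM at E9.5, and Id1, Id2 and Id3 were 2.39-fold, 2.95-fold and 2.91-fold higher. Tmem100, an endothelial target of BMP9, had 0.266 and 0.137 RPKM in liver and 20.5 and 21.5 RPKM at E9.5.

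**Figure D4:**
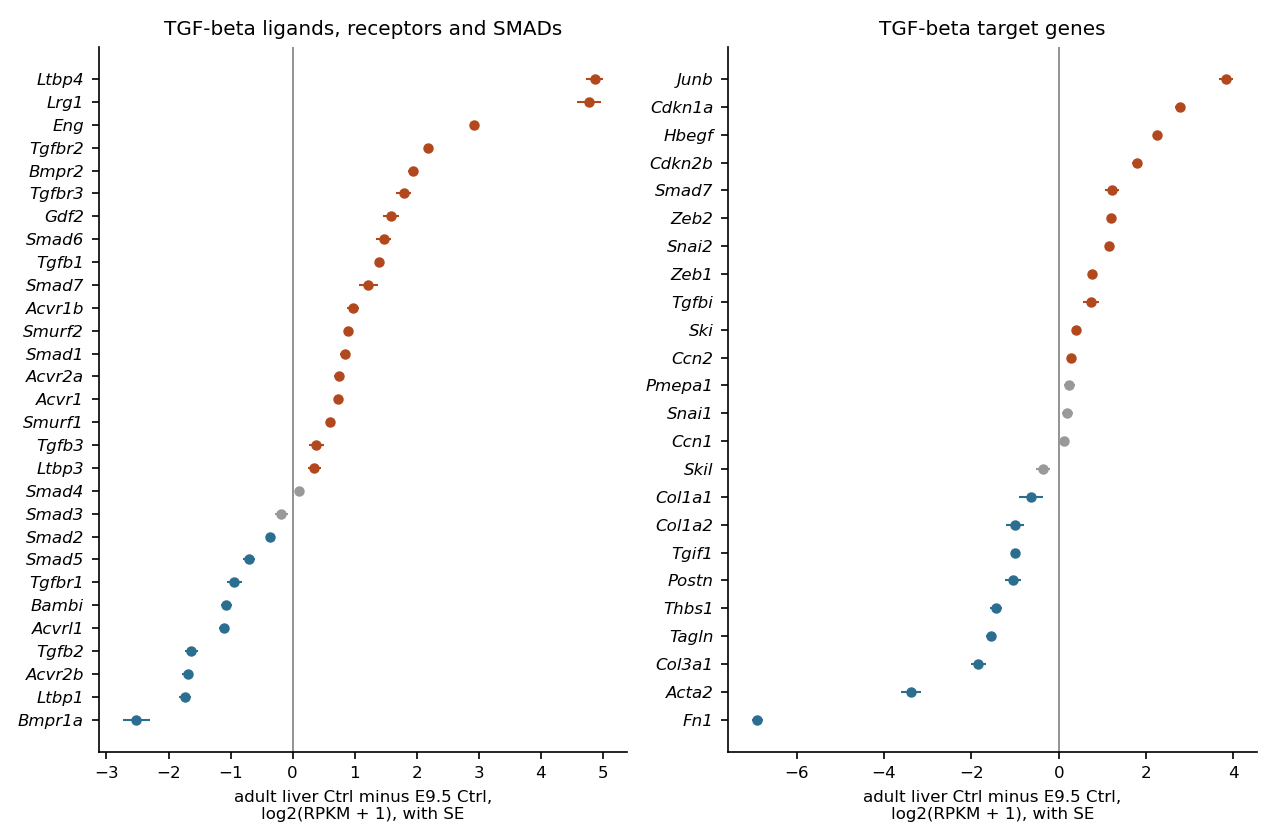
Difference in log2(RPKM + 1), adult liver Ctrl minus E9.5 Ctrl, with its SE, for tested TGF-beta ligands, receptors and SMADs (left) and target genes (right), with grey for genes not called. Targets run from 3.83 for Junb to -6.90 for Fn1, and components from 4.87 for Ltbp4 to -2.52 for Bmpr1a.

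The VEGF and tip cell list held 10 genes higher and 8 lower of 19 tested. The receptor Kdr had 1120 and 1010 RPKM in liver and 251 and 245 RPKM at E9.5. Among tip cell genes Apln and Pdgfb fell, with Apln, the apelin ligand, at 1.24 and 1.82 RPKM in liver and 23.3 and 24.2 RPKM at E9.5, and Pdgfb, which recruits pericytes, at 1.32 and 1.46 RPKM in liver and 13.1 and 13.3 RPKM at E9.5. Angpt2, a TIE2 ligand, rose to 13.8 and 14.2 RPKM in liver, against 2.49 and 2.61 RPKM at E9.5.

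Cell cycle genes were lower in liver without exception on the lists used. All 26 DNA replication genes and all 24 mitosis genes were called lower, each by at least 1, with medians of -3.21 and -3.70. Rrm2, the ribonucleotide reductase subunit that limits dNTP supply, had 3.01 and 3.10 RPKM in liver and 210 and 207 RPKM at E9.5. Uhrf1, which brings DNA methylation to new strands, had 2.25 and 1.97 RPKM in liver and 127 and 126 RPKM at E9.5. Ccnb1, cyclin B1, had 3.18 and 3.32 RPKM in liver and 159 and 158 RPKM at E9.5. They were 68.2-fold, 59.9-fold and 48.8-fold lower in liver. Ube2c, an E2 enzyme of the anaphase complex, was 37.2-fold lower, and the mitotic kinases Plk1 and Aurkb 38.2-fold and 27.7-fold lower. In the Runx1 libraries both medians were nearer to 0, at -1.88 and -2.22.

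Of 13 tested CDK inhibitor and quiescence genes, 11 were higher in liver and 1 lower, with a median of 1.79. Klf9, a hormone-responsive repressor, had 22.1 and 22.6 RPKM in liver and 0.546 and 0.559 RPKM at E9.5. Cdkn2c, an inhibitor of CDK4 and CDK6, had 11.4 and 11.6 RPKM in liver and 0.673 and 0.859 RPKM at E9.5, and Cdkn1a had 60.3 and 61.3 RPKM in liver and 8.48 and 7.59 RPKM at E9.5. The exception was Cdkn1c, an imprinted inhibitor, at 27.2 and 26.9 RPKM in liver and 293 and 300 RPKM at E9.5. In the Runx1 libraries the Cdkn1a difference was 0.33 on the log2 scale, against 2.78 in the Ctrl libraries. The difference between these 2 contrasts was not tested.

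All 8 tested oncofetal genes, many of which act in the growth of embryonic cells, were lower in liver by at least 1. Their median was -4.05 and the smallest change -1.33. Lin28b had 6 reads in the liver libraries together and 7697 at E9.5, or 17.6 and 16.0 RPKM there, and its relative Lin28a had 4 reads in liver and 4436 at E9.5. The mRNA-binding protein Igf2bp1 had 0.0261 and 0.0289 RPKM in liver and 37.3 and 38.7 RPKM at E9.5. Hmga2, a chromatin architectural protein, had 2.50 and 2.57 RPKM in liver and 66.8 and 65.2 RPKM at E9.5. Every one of the 8 had an E9.5-only peak within 10 kb, 83 peaks in all, of which Hmga2 had 18 and Lin28b 16. A liver-only peak also lay near 4 of the 8. E9.5-only peaks lay that near to 77.0% of all genes and 82.0% of those lower in liver by at least 2. All 17 flow and vasoactive genes, most of them higher in liver, had one too.

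Imprinted growth genes fell together, 14 of 14 tested by at least 1, with a median of -3.74. Igf2, the fetal growth factor (chromosome 7, 142650768 to 142666816), had 0.724 and 0.722 RPKM in liver and 383 and 426 RPKM at E9.5. H19, the noncoding RNA of the same locus (chromosome 7, 142575530 to 142578146), had 0.341 and 0.450 RPKM in liver and 299 and 314 RPKM at E9.5. These were the largest decreases of all genes tested, -7.88 ± 0.09 and -7.78 ± 0.13 on the log2 scale (SE), and they were 559-fold and 774-fold lower in liver. Peg3, a zinc finger factor, was 283-fold lower in liver, and Nnat, a small membrane protein, 169-fold lower. Mest, a hydrolase-like protein, was 27.2-fold lower but still had 66.1 and 66.4 RPKM in liver, against 1780 and 1810 RPKM at E9.5. All 14 had an E9.5-only peak within 10 kb, 81 in all, and 3 a liver-only peak, against 77.0% and 19.2% of all genes.

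Other large decreases outside these lists included Mdk, the growth factor midkine, at 0.312 and 0.432 RPKM in liver and 134 and 138 RPKM at E9.5, and Gap43, a growth cone protein, 479-fold lower. Mogat2, a monoacylglycerol acyltransferase, had 9 reads in the liver libraries together and 11320 at E9.5. Among genes of no list, the smallest adjusted p-values were those of Lgals9, Irgm1, Mif, Cks1b, Tubb6, Xdh, Ppa1 and Slc38a4. Lgals9, galectin 9, had 301 and 295 RPKM in liver and 1.91 and 1.87 RPKM at E9.5. Mif, a cytokine, had 40.8 and 43.0 RPKM in liver and 1320 and 1330 RPKM at E9.5. Xdh, xanthine dehydrogenase, had 99.9 and 92.6 RPKM in liver and 0.0371 and 0.0197 RPKM at E9.5, a 3390-fold difference on 11 reads at E9.5.

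**Figure D5:**
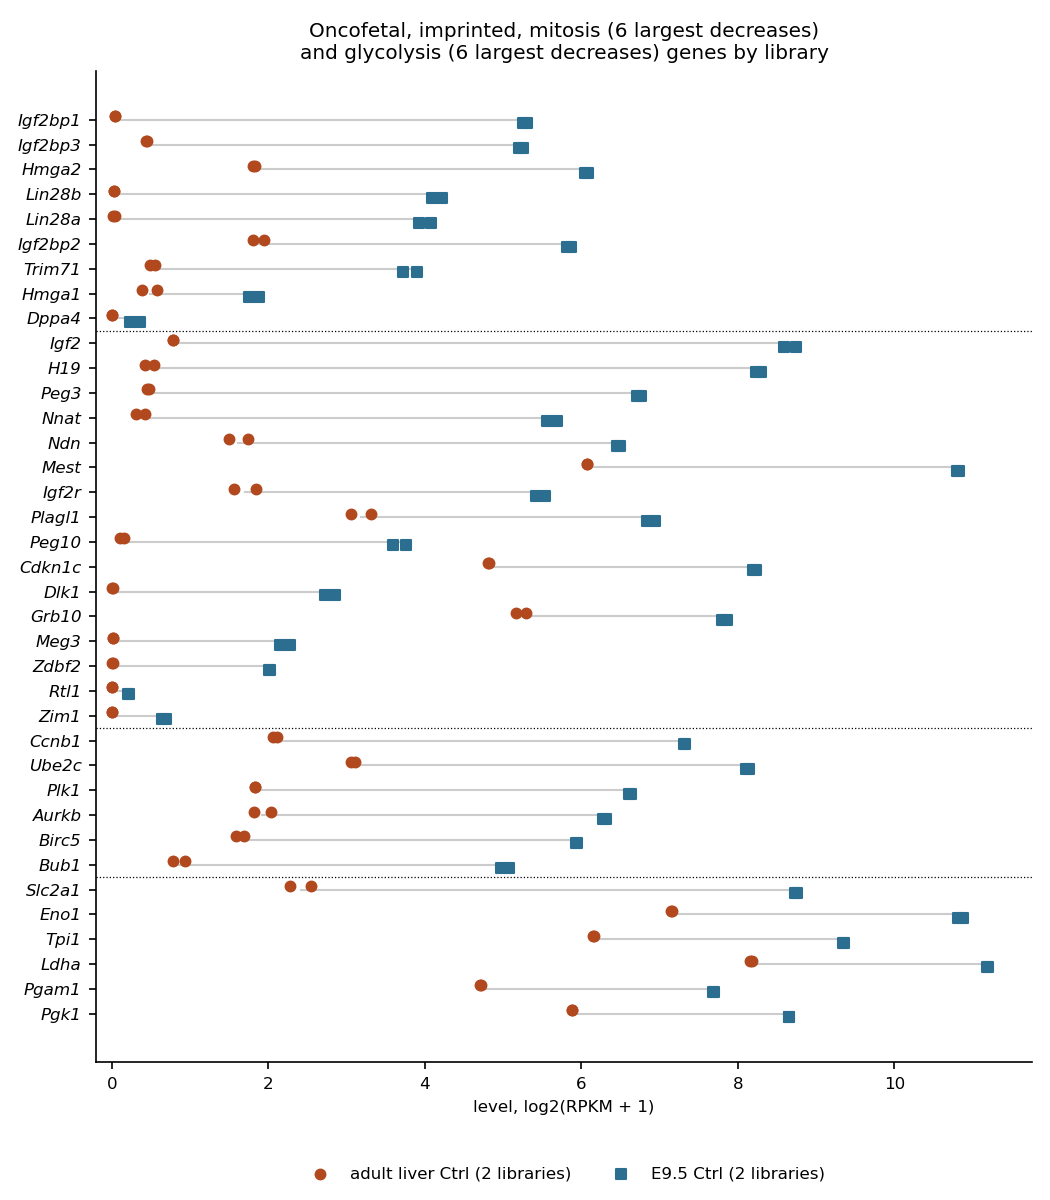
Level in log2(RPKM + 1) in each of the 2 adult liver Ctrl libraries (circles) and the 2 E9.5 Ctrl libraries (squares) for oncofetal genes, imprinted growth genes, and the 6 largest decreases each of the mitosis and glycolysis lists, from top to bottom. Liver libraries lie to the left of E9.5 libraries at every gene drawn, by 7.88 at Igf2, and Mest keeps the highest liver level of the imprinted genes.

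DNA methylation and Polycomb genes fell in 12 of 16 and rose in 3, with a median of -1.09. Hells, a chromatin remodeler, and Ezh2, the Polycomb methyltransferase, were 27.5-fold and 13.7-fold lower in liver, with Ezh2 at 3.09 and 2.66 RPKM in liver and 39.3 and 39.5 RPKM at E9.5. The related Ezh1 had 39.0 and 37.6 RPKM in liver and 6.41 and 7.0 RPKM at E9.5, so the pair moved in opposite directions. Cbx7, a Polycomb reader, was 61.3-fold higher in liver and its paralog Cbx2 12.5-fold lower.

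Glycolysis genes were lower in liver in 13 of 16, 12 of them by at least 1, with a median of -2.32. Slc2a1, the glucose transporter GLUT1 (chromosome 4, 119108745 to 119137330), had 4.84 and 3.85 RPKM in liver and 432 and 422 RPKM at E9.5. Eno1, an enolase, had 142 and 140 RPKM in liver and 1880 and 1800 RPKM at E9.5, and Ldha, lactate dehydrogenase, had 289 and 284 RPKM in liver and 2320 and 2350 RPKM at E9.5. Tpi1, an isomerase of the pathway, was 9.32-fold lower. Hk1, a hexokinase, was the one gene called higher, at 1.38-fold.

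Basement membrane and matrix genes had 12 of 20 lower and 4 higher, with a median of -1.19. Col18a1, the source of endostatin, had 0.733 and 1.01 RPKM in liver and 368 and 372 RPKM at E9.5, and 19 E9.5-only peaks. The laminin chain Lamb1 had 1.04 and 1.15 RPKM in liver and 87.7 and 84.2 RPKM at E9.5, while Lamb2 had 62.4 and 59.9 RPKM in liver and 6.62 and 6.55 RPKM at E9.5. These chains moved in opposite directions. Col4a1, the main collagen of the membrane, was not called, at 362 and 336 RPKM in liver and 345 and 357 RPKM at E9.5. Junction, caveola and fenestra genes had 9 of 18 higher and 6 lower. Jam2, a junctional adhesion molecule, was 271-fold higher in liver and the caveola protein Cavin2 29.4-fold higher, while N-cadherin (Cdh2) was 70.1-fold lower and occludin (Ocln) 27.0-fold lower.

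Genes of antigen presentation and of the interferon response were higher in liver. Of 17 tested MHC class I and loading genes, 15 were higher, all by at least 1, and 2 lower, with a median of 4.97. H2-T23, which encodes the nonclassical molecule Qa-1, had 698 and 716 RPKM in liver and 1.06 and 0.865 RPKM at E9.5. H2-K1, a classical class I heavy chain, had 1110 and 1150 RPKM in liver and 6.41 and 7.31 RPKM at E9.5. Psmb8, an immunoproteasome subunit, had 108 and 114 RPKM in liver and 0.120 and 0.149 RPKM at E9.5. Those folds were 735, 164 and 824. H2 genes are near-identical copies that differ between strains, the strain crosses differed, and H2-Q7 was listed at 0 in all 4 libraries, so levels of single H2 genes are uncertain. The chaperones Calr and Pdia3 were the 2 lower genes, at 1.6-fold and 1.20-fold.

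All 22 tested interferon-stimulated genes were higher in liver by at least 1, with a median of 4.68. Iigp1, an interferon-inducible GTPase, had 97.3 and 99.3 RPKM in liver and 0.0455 and 0.0353 RPKM at E9.5. Ifit3, an antiviral RNA-binding protein, had 70.3 and 74.6 RPKM in liver and 0.0490 and 0.137 RPKM at E9.5. Irf1 and Irf7, transcription factors of the response, were 71.6-fold and 271-fold higher. Liver-only peaks lay within 10 kb of 9 of the 22 (40.9%), near the 38.0% of all genes higher in liver by at least 2 on the log2 scale, against 1 of 17 class I genes (5.88%) and 19.2% of all genes.

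All 16 tested innate sensing and NF-kappaB genes were higher in liver by at least 1, with a median of 3.15. Il6st, the shared receptor of the IL-6 family, had 626 and 558 RPKM in liver and 29.0 and 28.2 RPKM at E9.5, and Ly96, the TLR4 co-receptor, was 21.8-fold higher. Leukocyte adhesion molecules and chemokines were higher in 12 of 15 and lower in 3, with a median of 3.26. The chemokine Cxcl10 had 215 and 210 RPKM in liver and 0.422 and 0.621 RPKM at E9.5, and Vcam1, which binds lymphocytes, had 54.7 and 53.0 RPKM in liver and 0.259 and 0.261 RPKM at E9.5. Cx3cl1, Madcam1 and Cd44 fell, Cx3cl1 to 0.169 and 0.106 RPKM in liver, against 9.91 and 10.5 RPKM at E9.5.

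MHC class II genes were lower in level than class I. Of 8 tested, 7 were higher in liver and 1 lower, with a median of 3.00. Cd74, the invariant chain, had 45.7 and 48.5 RPKM in liver and 0.0864 and 0.0322 RPKM at E9.5, and H2-Aa had 18 and 21 RPKM in liver and 0.0217 and 0 RPKM at E9.5. Cd40, a costimulatory receptor, fell to 6.04 and 6.55 RPKM in liver, against 25 and 24.3 RPKM at E9.5. The macrophage markers Lyz2 and C1qb, at 55.7 and 60.1 and at 56.4 and 53.1 RPKM in liver, stood near the level of Cd74, and their part in the class II values was not tested.

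Lysosome and endocytosis genes were higher in liver in 18 of 20 and lower in 2, with a median of 1.95. Lgmn, an asparagine endopeptidase, had 798 and 791 RPKM in liver and 24.3 and 23.3 RPKM at E9.5. The membrane protein Lamp2 was 16.0-fold and the protease Ctsl 14.1-fold higher in liver. Flow and vasoactive genes were higher in 13 of 17 and lower in 3. Nostrin, which binds nitric oxide synthase, had 146 and 149 RPKM in liver and 3.06 and 3.64 RPKM at E9.5, and Ptgs1, cyclooxygenase 1, was 31.8-fold higher, while Ptgis, prostacyclin synthase, was 10.1-fold lower. Coagulation genes were higher in 7 of 10 tested and lower in 3. Beside F8, the anticoagulants Pros1 and Thbd were 16.6-fold and 6.50-fold higher, and Plat, tissue plasminogen activator, was 9.67-fold lower.

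Immediate early and heat shock genes, which rise in cells that are handled or stressed, were higher in liver in 17 of 19 and lower in 1, with a median of 2.37. Zfp36, which destabilises cytokine mRNA, had 481 and 468 RPKM in liver and 13.4 and 11.4 RPKM at E9.5. Fos had 1060 and 1080 RPKM in liver and 54.9 and 50.7 RPKM at E9.5, and the phosphatase Dusp1 had 1420 and 1400 RPKM in liver and 88.6 and 87.1 RPKM at E9.5. The heat shock protein gene Hspa8 was the one gene called lower. They moved with the liver libraries alongside the NF-kappaB inhibitor Nfkbia, at 340 and 354 RPKM in liver and 30.9 and 30.3 RPKM at E9.5, and their part in the innate results was not tested.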

How the data were processed

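RNA and open chromatin were read in sorted endothelial cells of adult liver Ctrl and E9.5 Ctrl mice. The authors deposited 1 table of RPKM values for all RNA libraries, made per the submitters' processing notes with STAR 2.7.3a, featureCounts of Subread 2.0.0 and edgeR on mm10/GRCm38. Per the labels' protocols the RNA was poly(A) selected and made into libraries with a transposase kit that does not mark strand, so a gene and an antisense partner cannot be told apart. ATAC reads (50000 cells per sample) were aligned with Bowtie2 2.3.5.1 and peaks called with MACS2 2.1.4, per the submitters' processing notes, into 1 pooled list per group. The deposited peak lists give a score, a fold enrichment and a -log10 q value by the authors' caller. No source used here says whether reads were shifted for the transposase.

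Each RPKM value was a whole multiple of what 1 read is worth in 20720 of 20720 genes (tolerance 0.0001 reads), which gave the read numbers. Values were set to log2(RPKM + 1), which understates changes of low genes, and genes with at least 1 RPKM in at least 2 libraries were kept. limma 3.58.1 (R 4.3.3) with an intensity trend fitted 7 group means over all 13 RNA libraries, with Benjamini-Hochberg adjustment, two-sided, at 0.05. The scripts were tested on simulated data. Peaks were shared where they overlapped by at least 1 base. Promoter sequences came from RefSeq, GRCm38.p6.

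Genes were named by rule: the 12 largest changes each way, up to 4 members per list and direction, all sinusoidal genes, the 8 smallest adjusted p-values outside the lists, and listed genes with a promoter peak in 1 list. Other list members were chosen after their values were seen. Members and lists were chosen with earlier results of these data known.

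Alternatives changed the pseudocount, filter, scaling, model, libraries, threshold, overlap rule and promoter window.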

Additional observations from a re-analysis of the deposited data

How the results depend on the processing

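The comparison of adult liver Ctrl with E9.5 Ctrl kept between 10152 and 12805 called genes under every alternative on filter, pseudocount, scaling and model, except 8453 where an RPKM of at least 5 was required and 9937 at an adjusted p under 0.01. A change of at least 1 on the log2 scale left 5428 called, 2811 higher and 2617 lower, and 4950 in the Runx1 contrast. Leaving out 1 library gave 10152 to 10220 called, 5095 to 5132 of them higher and 5055 to 5095 lower, and 10041 to 10108 in the Runx1 contrast. limma-voom on the recovered reads called 10601. Replicate numbers did not pair the samples (correlation of deviations -0.0611 to 0.107), and the replicate block gave 10699 called. Of 350 named genes tested, none reversed under the alternatives that kept all 350, nor did any of the 294 left by an RPKM of at least 5 or the 337 left without X and Y genes. Their calls were lost in 40 at a change of at least 1, 23 at an adjusted p under 0.01, 16 to 18 without 1 library, 14 with no filter, 11 with limma-voom, 8 with quantile normalization, 7 with equal RPKM sums and at most 2 under the other alternatives.

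The peak share depended more on the rule. Of liver and E9.5 peaks, 91.5% and 25.1% were shared at a -log10 q of at least 10, 60.7% and 56.4% with the same number of top peaks, 75.2% and 27.9% when 50% of either peak had to be covered, and 78.3% and 30.8% within 500 bases. The median RNA change with a liver-only promoter peak was 3.37 within 250 bases, 3.36 within 5 kb and 2.52 at either gene end, where the E9.5-only and neither medians were -0.49 and 0.30. The cause was not tested. Depth limits genes with few reads in 1 group, whose folds were not given. Motif shares inside peaks were not run, since no genome was used.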

Other observations

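The 39 Hox genes, which mark position along the body axis, were split between the groups much as all genes tested were. Of 18 tested, 8 were called higher in liver and 8 lower, with a median of -0.01, and 21 were too low to test. Over all genes tested, 42.7% were called higher and 42.7% lower, with the same median. Hoxa5 had 25.2 and 26.8 RPKM in liver and 3.18 and 3.94 RPKM at E9.5, and Hoxb5 had 11.9 and 12.9 RPKM in liver and 2.53 and 3.10 RPKM at E9.5. Hoxa9 had 0.0193 and 0.00938 RPKM in liver and 2.91 and 3.22 RPKM at E9.5, and Hoxd8 had 0.174 and 0.0842 RPKM in liver and 3.33 and 3.45 RPKM at E9.5. Organ and age cannot be told apart here.

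A single E13.5 Ctrl library, from whole fetuses, gave an intermediate time point with no replicate. Its place on the way from E9.5 to adult liver was taken per gene on the log2(RPKM + 1) scale, 0% being the E9.5 mean and 100% the liver mean. Genes higher in liver by at least 2 on that scale stood at a median of 19.3%, with 95 of 1172 nearer to liver than to E9.5, and genes lower by that much at 17.5%, with 58 of 946 nearer to liver. The lists were cut in the same way, to called genes with a change of at least 2. The sinusoidal receptors stood at 43.6% over 11 genes, with quartiles of 7.03% and 50.8%. The identity genes stood at 18.3% over 17, with quartiles of 8.9% and 33.3%. Lyve1, for example, had 177 RPKM at E13.5 and Ehd3 147 RPKM, but Fcgr2b had 1.32 and Clec4g 6.28 RPKM. Imprinted growth genes stood at 4.06% (14 genes) and mitosis genes at 11.1% (23 genes). Oncofetal genes stood at 50.8% (7 genes) and glycolysis genes at 53.1% (10 genes). Mest had 1780 RPKM at E13.5, and Lin28a had 0.0410 RPKM. The hepatocyte markers stood at 88.6% over 15 genes, with quartiles of 32.4% and 110%. Their part in the E13.5 values of other genes was not tested. The positions are given as values, and they were not tested.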
